A study of Mus musculus with 5 samples.

Results

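The liver sub-line of NT2.5 cells at passage 3 was set against the same sub-line at passage 1, which the submitters treat as its final and its early passage. These are 2 of the 5 arrays of the study and were chosen by their labels, with 1 array for each passage. NT2.5 is a mouse mammary tumour line from animals that carry the neu oncogene under a mammary promoter. The study measured RNA of the liver sub-line at passages 3 and 1, of a bone sub-line at passages 6 and 3, and of the parental cells. The sub-lines are labelled with a metastatic preference for liver or for bone, and the parental cells with all 3 of bone, liver and lung as preferred sites. All of them descend from this 1 line, and how many animals or colonies gave each sub-line, and how a passage was carried out, the sources used here do not say. RNA was hybridised to Affymetrix mouse arrays of 1 colour, and the authors deposited 1 linear intensity for each of 45101 probe sets.

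With 1 array for each passage there is no replicate check, and no test was made. For each probe set the difference is log2(intensity + 16) at liver passage 3 minus the same at liver passage 1, so that a positive value is higher at passage 3. The added 16 makes differences of dim genes smaller than they are on the raw scale. In place of replicates, the several probe sets of a gene were compared with each other. They read the same RNA, so their agreement bears on the measurement of that RNA and not on the spread between cultures. A probe set was used where its highest intensity on the 5 arrays reached 25.1, the median of all values, and a gene was read from its brightest probe set, by the mean over the 5 arrays. This left 12609 of 18193 genes, of which 5855 had several probe sets. The middle 50% of all genes lay between -0.21 and 0.26, with a median of 0.02. Gene lists were drawn up with earlier results of these data known, so their counts beside shares of all genes are no independent support.

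Dividing cells raise a shared set of genes for DNA replication and mitosis, many of them under E2F transcription factors. Cells short of sterols release SREBP factors from the endoplasmic reticulum, which switch on cholesterol synthesis. Cells short of amino acids, or under other stress that phosphorylates eIF2alpha, translate the transcription factor ATF4, which switches on amino acid synthesis, transport and tRNA charging. The liver's own cells are mainly hepatocytes, with sinusoidal endothelium, stellate cells and Kupffer cells, which are its resident macrophages.

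Epithelial genes had high intensities on both arrays. So had Vim, a mesenchymal marker, at 4769 at passage 3 and 4553 at passage 1. Epcam, an epithelial adhesion protein, had an intensity of 3761 at passage 3 and 3980 at passage 1. The cadherin gene Cdh1 had 3637 and 3724 at the same passages, and the keratin gene Krt8 had 3460 and 3406. Erbb2, the gene whose rat form is the neu oncogene, had 279.9 at passage 3 and 212 at passage 1. Of 18 mammary epithelial genes tested, 10 were higher and 8 lower at passage 3, none of them 2-fold, with a median difference of 0.02. Wap, Csn2, Pgr and Krt19 of the same list were below the intensity limit. Median intensities were 26.2 at passage 3 and 24.6 at passage 1, and 21.9 to 26.4 on the other 3 arrays. The 5'/3' ratio of the beta-actin control was 0.927 at passage 3 and 0.888 at passage 1, and that of the Gapdh control was 1.25 and 1.33.

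At least 2-fold differences were found for 355 genes, 2.82% of those tested. Of these, 213 genes (1.69%) were higher at passage 3 and 142 (1.13%) were lower. The higher genes were 60.0% of the 2-fold genes, and 51.1% when each array was centred on its median. By any amount, 52.3% of genes were higher at passage 3 and 47.6% lower. Several probe sets were present for 77 of the 2-fold higher genes, and for 68 of these every probe set was higher. Of the 51 lower genes with several probe sets, 41 had every probe set lower. The stricter rule, which asks every one of several probe sets to differ at least 1.5-fold one way, was met by 118 genes on the higher side (2.02% of 5855) and by 102 on the lower side (1.74%). Passage 1 was the lowest of the 5 arrays for 155 of the 213 higher genes and the highest for 119 of the 142 lower genes. Over all genes, passage 1 was the lowest array for 23.7% and the highest for 24.7%. The 2-fold genes were picked by their difference from passage 1, so these counts and shares do not compare. Passage 1 could not be the highest for a higher gene or the lowest for a lower one.

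**Figure D1:**
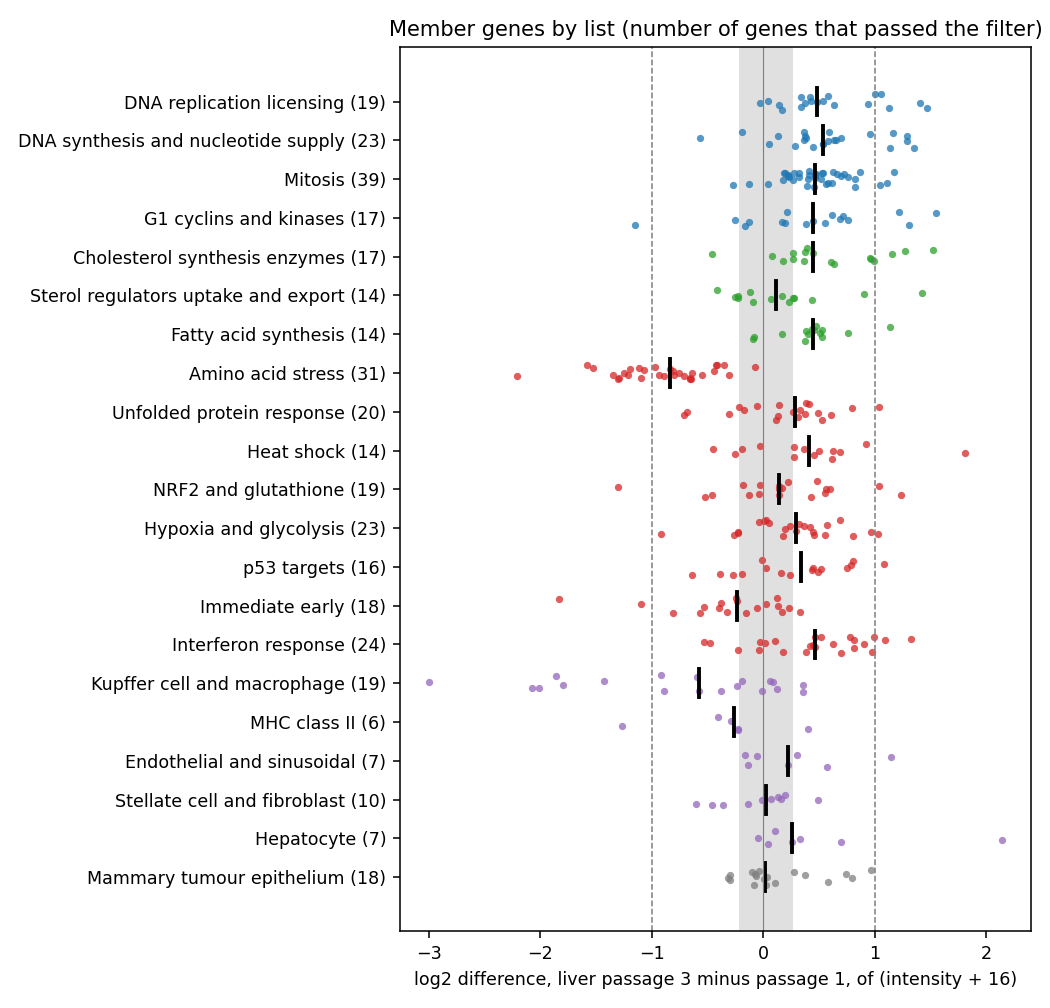
Each point is 1 gene, placed by its log2 difference of intensity + 16, liver passage 3 minus liver passage 1. Black bars are list medians, the grey band holds the middle 50% of all 12609 genes, dashed lines mark 2-fold, and colours mark proliferation (blue), sterol and fatty acid (green), stress (red), host cell (purple) and tumour epithelial lists (grey). All 31 amino acid stress genes lie below 0, while 18 of 19 replication licensing genes and 16 of 17 cholesterol synthesis genes lie above it. The lists were drawn up with earlier results of these data known.

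Replication genes were higher at passage 3. Of 19 genes that load and fire replication origins, 18 were higher and 1 lower, with a median difference of 0.48 or 1.39-fold, where 52.3% of all genes were higher. Gmnn, which encodes geminin, the inhibitor of origin licensing, had an intensity of 487 at passage 3 and 166 at passage 1, a difference of 1.47. Cdc6, the loader of the MCM helicase, had 351 at passage 3 and 123 at passage 1, a difference of 1.40. Both genes were lower at liver passage 1 than on the other 4 arrays, which ran from 452 to 653 for Gmnn and from 254 to 454 for Cdc6. Both rest on 1 probe set.

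The helicase subunit genes themselves followed with smaller differences. Mcm4 had 1251 at passage 3 and 562 at passage 1, a difference of 1.13. Mcm5 had 2361 at passage 3 and 1125 at passage 1, a difference of 1.06. Their second probe sets gave 0.93 and 0.96. Mcm3, at 1921 and 949, had a difference of 1.01, and its 5 probe sets ran from 0.26 to 1.36, all higher at passage 3. The 4 probe sets of Mcm7 ran from 0.37 to 0.47, and Mcm2 had a difference of 0.54. Dbf4, the activator of the kinase Cdc7, was the 1 member on the lower side, at -0.03.

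Matches to E2F sites stood before the start of 2 of the 5 licensing genes that were at least 2-fold higher. The letters searched were TTTGGCGC, TTTCCCGC and TTTCGCGC on both strands, in RefSeq promoters of mouse build GRCm38.p6 that reach from 250 bases before to 50 bases after each start site. They were found in 8 of the 14 licensing genes with a promoter (57.1%), in 6 of 20 genes of DNA synthesis (30.0%) and in 3 of 33 mitotic genes (9.09%). Among all genes, 2.12% had a match, and among all promoters 1.84%. A match describes the sequence and does not show a site in use. The 120 bases around the matches are printed for Mcm5 at chr8:75109306-75109425 on the plus strand, where 2 overlapping matches begin at -153 and -149 (the base just before the start site is -1), and for Cdc6 at chr11:98907963-98908082 on the plus strand, where the match begins at -138. Both run 5′ to 3′ in the direction of the gene, with matches in capitals.
Mcm5: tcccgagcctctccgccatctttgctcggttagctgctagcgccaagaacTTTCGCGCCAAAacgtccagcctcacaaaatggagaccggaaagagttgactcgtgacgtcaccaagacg
Cdc6: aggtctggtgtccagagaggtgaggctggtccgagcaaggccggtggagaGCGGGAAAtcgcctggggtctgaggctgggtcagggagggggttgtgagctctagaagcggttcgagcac

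Genes that supply and join nucleotides were higher as well. Of 23 such genes, 21 were higher and 2 lower, 5 of them at least 2-fold higher, with a median difference of 0.54 or 1.45-fold. Rrm2, the regulatory subunit of ribonucleotide reductase, had 2566 at passage 3 and 992 at passage 1. Its 3 probe sets gave 1.36, 1.63 and 1.21. Rrm1, the large subunit, had 1131 and 494, a difference of 1.17. Lig1, which joins Okazaki fragments, had a difference of 1.29, the thymidine kinase gene Tk1 1.29 and the dUTPase gene Dut 1.14. The replication clamp gene Pcna had 4536 at passage 3 and 3125 at passage 1, a difference of 0.54. Fen1, the flap endonuclease, stood apart at -0.57, although its second probe set gave 1.15.

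Mitotic genes had the same direction. Of 39 genes, 37 were higher and 2 lower, 3 of them at least 2-fold, with a median difference of 0.46 or 1.38-fold. The spindle checkpoint gene Mad2l1 had 907 at passage 3 and 393 at passage 1, a difference of 1.17. Nuf2, part of the outer kinetochore, had a difference of 1.11, and the kinase Aurkb 1.05 with 0.95 for its second probe set. The proliferation marker Mki67 had 632 and 504, a difference of 0.32, and the topoisomerase gene Top2a 2164 and 1403, a difference of 0.62. Smc4, a condensin subunit, was lower by all 3 of its probe sets, from -0.48 to -0.27. Kif15 was below the intensity limit.

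Among the genes of the G1 phase, the cyclins of the G1/S step were higher and Myc was lower. Ccne2 had 127 at passage 3 and 41.7 at passage 1, a difference of 1.31. Ccne1 had 365 and 147, a difference of 1.22, with 0.71 for its second probe set. Cyclin D2 (Ccnd2) had 276 and 83.7, and its 7 probe sets ran from 0.63 to 1.67. Ccnd1, a cyclin that neu signalling raises in mammary epithelium, had 3278 at passage 3 and 3584 at passage 1, with 3 probe sets from -0.30 to -0.03. The transcription factor gene Myc had 539 at passage 3 and 1212 at passage 1, a difference of -1.15 by 1 probe set. In all, 13 of 17 genes were higher and 4 lower, with a median difference of 0.44.

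The CDK inhibitors, which hold cells back from S phase, were higher too in 3 of the 4 members tested. Cdkn1a, which encodes p21, had 1212 at passage 3 and 696 at passage 1, a difference of 0.79 with 0.44 for its second probe set. Cdkn2c had 546 and 267, a difference of 0.99. Cdkn1b, which encodes p27, had 317 and 344, a difference of -0.11. The remaining 3 members were below the intensity limit.

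Liver passage 1 was often the array with the lowest value for proliferation genes. It was the lowest of the 5 arrays for 15 of 19 licensing genes and 17 of 23 DNA synthesis genes. It was also the lowest for 20 of 39 mitotic genes and 8 of 17 genes of the G1 phase. Over all genes it was the lowest for 23.7%. These lists were mostly higher at passage 3, which favours low ranks of passage 1. Against the parental array, the median licensing gene was at -0.04 in liver passage 3 and -0.54 in liver passage 1, and at 0.23 in bone passage 6 and -0.29 in bone passage 3. For DNA synthesis the same values were -0.05 and -0.65 in liver, and 0.09 and -0.36 in bone. For mitosis they were -0.14 and -0.59 in liver, and -0.01 and -0.53 in bone, so bone passage 3 lay nearly as low as liver passage 1. These pairs share the parental array, so they are given as values only.

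**Figure D2:**
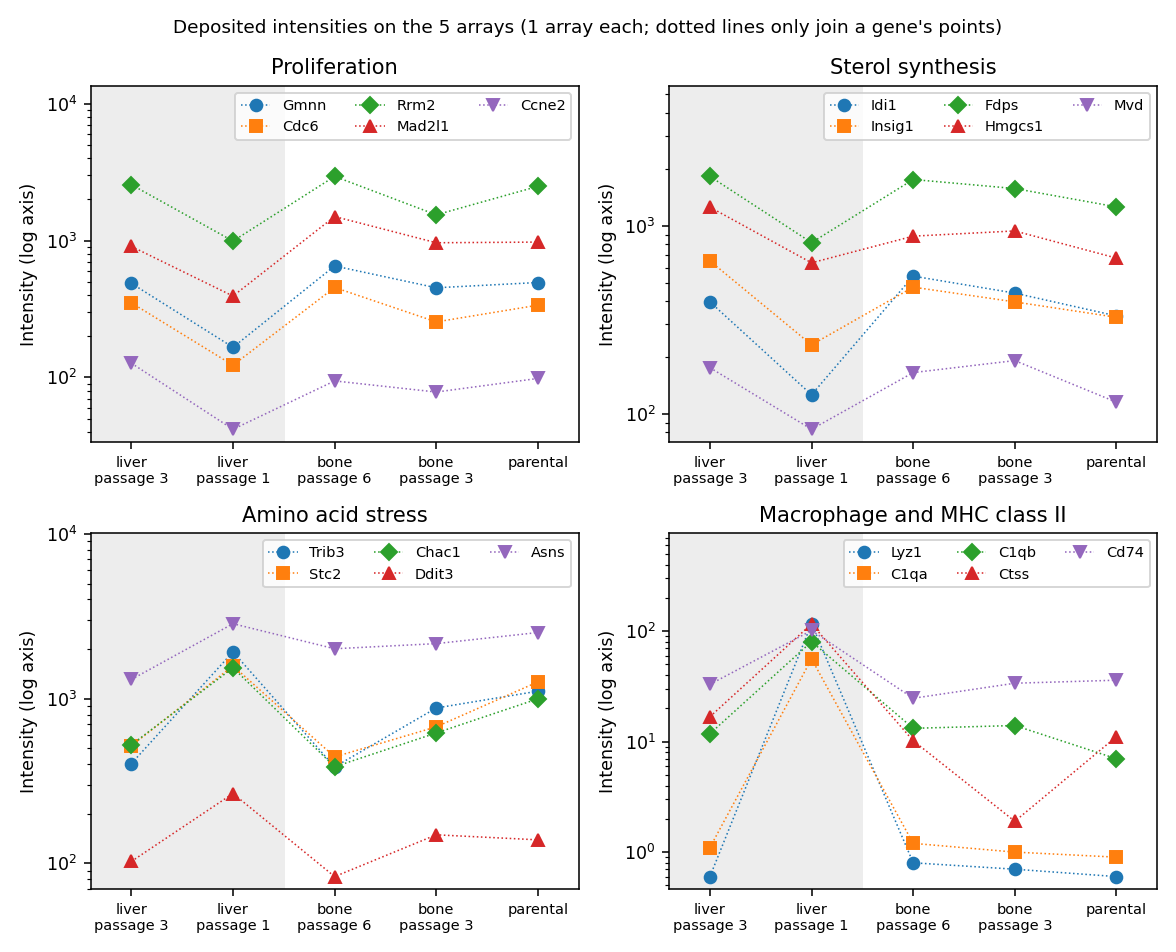
Deposited intensities on a log axis for 5 genes of each of 4 groups, with the arrays on the horizontal axis and the liver pair shaded. There is 1 array for each column, and the height of 1 gene says nothing of another. At liver passage 1 the proliferation and sterol genes drawn are at their lowest, and the amino acid stress and macrophage genes drawn are at their highest. The macrophage genes drawn other than Cd74 reached the intensity limit through liver passage 1 alone.

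Genes of cholesterol synthesis were higher at passage 3 at nearly every step measured. Of 17 enzyme genes, 16 were higher and 1 lower, and 3 were at least 2-fold higher, with a median difference of 0.44 or 1.36-fold. Idi1, the isomerase that makes dimethylallyl diphosphate, had 395 at passage 3 and 127 at passage 1. Its 2 probe sets gave 1.52 and 1.49. Fdps, the farnesyl diphosphate synthase, had 1832 and 815, a difference of 1.15 by 1 probe set. Fdft1, the squalene synthase, had 719.6 and 288, a difference of 1.28. A second Fdft1 probe set gave 1.32, while the 2 dim ones, at intensities of 18.5 to 34.0 on these arrays, gave -0.54 and 0.04.

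Hmgcs1, which makes HMG-CoA at the head of the pathway, had probe sets that lay close together. It had 1258 at passage 3 and 637 at passage 1, and its 4 probe sets ran from 0.93 to 1.10. Mvd had a difference of 0.96, with 0.77 for its second probe set, and Nsdhl 0.99 by 1 probe set. Sqle, the squalene epoxidase and a control step of the pathway, had 808 at passage 3 and 667 at passage 1, a difference of 0.27. Lss and Msmo1 were at 0.08 and 0.18. Pmvk, the phosphomevalonate kinase, was the member on the lower side at -0.46. Passage 3 was the highest of the 5 arrays for 8 of the 17 genes, against 19.9% of all genes. Passage 1 was the lowest for 10, against 23.7% of all genes. Since 16 of the 17 were higher at passage 3, such ranks were favoured.

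Hmgcs1 was also the 1 member of 14 with a promoter (7.14%) that held a match to the sterol regulatory element. The letters searched were TCACNCCAC on both strands, which 1.24% of all promoters and 1.44% of all genes held. None of the 10 sterol regulators and of the 11 fatty acid genes with a promoter held it. As for E2F, a match does not show a site in use. The match begins at -137 and stands in capitals in the 120 bases of Hmgcs1 at chr13:119690164-119690283 on the plus strand, printed 5′ to 3′.
Hmgcs1: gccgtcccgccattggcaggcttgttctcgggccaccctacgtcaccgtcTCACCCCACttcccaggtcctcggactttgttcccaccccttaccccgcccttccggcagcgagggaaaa

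Regulators of sterol balance were mixed. Of 14 genes, 8 were higher and 6 lower at passage 3, with a median difference of 0.12. Insig1, the SREBP target that holds SREBP in the endoplasmic reticulum, had 652 at passage 3 and 234 at passage 1, a difference of 1.42 by 1 probe set. Stard4, a sterol carrier, had 3 probe sets that ran from 0.67 to 0.90. Srebf2, which encodes SREBP2, had 275 and 224, a difference of 0.28 with -0.01 for its second probe set. Srebf1 was at -0.09, and the cholesterol exporters Abca1 and Abcg1 were at -0.22 and -0.23.

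Fatty acid synthesis genes were higher in 12 of 14 cases, against 52.3% of all genes, with a median difference of 0.45. Fads2, a desaturase, had 769.7 at passage 3 and 341 at passage 1, a difference of 1.14 over 3 probe sets that ran from 0.37 to 1.14. Fasn, the fatty acid synthase, had 1628 and 952, a difference of 0.76. The desaturase gene Scd2 had 5395 and 3731, and its 3 probe sets ran from 0.44 to 0.59.

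Amino acid stress genes were lower at passage 3 without exception. All 31 genes of the list passed the intensity limit and all 31 were lower, against 47.6% of all genes. The list was drawn up with earlier results of these data known, so this count is no independent support. The median difference was -0.84, so that passage 1 was 1.79-fold higher. Of these, 12 were at least 2-fold lower, where 1.13% of all genes were. All 67 kept probe sets of the list were lower, and the 20 members with several probe sets had every one of them below 0. Over all genes with several probe sets, 61.3% had them on the same side. The stricter rule of 1.5-fold in every probe set was met by 11 of these 20.

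Regulators of the stress response were among the members with the largest differences. Trib3, a pseudokinase that binds ATF4, had 403 at passage 3 and 1923 at passage 1. Its 2 probe sets gave -2.21 and -2.25. Chac1, which breaks down glutathione, had 524 and 1539.9, a difference of -1.53. Ppp1r15a, which encodes GADD34 and brings a phosphatase to eIF2alpha, had 134 and 365, a difference of -1.35. Ddit3, which encodes CHOP, had 103 and 265, a difference of -1.25, and Atf3 had 277 and 609.8, a difference of -1.09. Stc2, a secreted glycoprotein, had 517 and 1582, with 3 probe sets from -1.58 to -1.07. Cebpg, a C/EBP partner of ATF4, was at -1.07, and its other 2 probe sets gave -0.60 and -0.08. Of the other transcription factor genes, Atf4 was at -0.65, Cebpb at -0.44 and Atf5 at -0.07.

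Genes of amino acid synthesis, transport and tRNA charging had the same direction. Asns, the asparagine synthetase, had 1307 at passage 3 and 2851 at passage 1, and its 2 probe sets gave -1.12 and -1.21. The transaminase gene Gpt2 had 408 and 957, with 4 probe sets from -1.43 to -1.20. Cth, which makes cysteine, had a difference of -1.21. The serine pathway genes Psph, Psat1 and Phgdh were at -0.80, -0.66 and -0.42. The cystine transporter gene Slc7a11 had 31.8 at passage 3 and 102 at passage 1, and its 2 probe sets gave -1.30 and -1.21. Its partner chain gene Slc3a2 had 2163 and 3875, a difference of -0.84. Wars, the tryptophanyl-tRNA synthetase, had 692 and 1721, with 4 probe sets from -1.33 to -0.95, and the synthetase genes Aars, Sars and Gars were at -0.71, -0.55 and -0.42.

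Passage 1 was the highest of the 5 arrays for 22 of the 31 genes, against 24.7% of all genes. Passage 3 was the lowest for 16, against 16.3% of all genes. Since all 31 were lower at passage 3, such ranks were favoured. Trib3 had 385, 877 and 1109.5 at bone passage 6, bone passage 3 and in parental cells, against the 1923 of liver passage 1. Asns had 2008, 2158 and 2519.9 on the same 3 arrays. Against the parental array the median member was at -0.49 in liver passage 3 and at 0.34 in liver passage 1, again as values that share the parental array.

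A match to the CARE element, which ATF4 and its C/EBP partners are known to bind, was found in 9 of the 27 list genes with a promoter (33.3%). The letters searched were TGATGNAA on both strands, which 3.97% of all promoters and 4.51% of all genes held. The list gathers genes of the response that ATF4 drives, so its higher share is no independent support. A match does not show a site in use, and the part of ATF4 in these differences was not tested. Of the members at least 2-fold lower, 4 held a match that lies wholly before the start site. The 120 bases around them are printed for Chac1 at chr2:119350999-119351118 on the plus strand, for Slc7a11 at chr3:50443614-50443733 on the minus strand, for Asns at chr6:7693210-7693329 on the minus strand, and for Atf3 at chr1:191183374-191183493 on the minus strand. Matches stand in capitals, and all run 5′ to 3′ in the direction of the gene. They begin at -193 in Chac1, at -66 and -47 in Slc7a11, at -23 in Asns and at -110 in Atf3.
Chac1: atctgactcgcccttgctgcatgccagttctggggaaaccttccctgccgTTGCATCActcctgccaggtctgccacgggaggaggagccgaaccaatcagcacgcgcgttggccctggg
Slc7a11: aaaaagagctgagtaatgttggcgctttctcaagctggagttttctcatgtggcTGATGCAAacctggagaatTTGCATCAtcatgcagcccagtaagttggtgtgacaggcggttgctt
Asns: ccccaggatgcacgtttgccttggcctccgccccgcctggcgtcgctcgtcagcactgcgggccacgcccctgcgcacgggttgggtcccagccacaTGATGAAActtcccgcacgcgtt
Atf3: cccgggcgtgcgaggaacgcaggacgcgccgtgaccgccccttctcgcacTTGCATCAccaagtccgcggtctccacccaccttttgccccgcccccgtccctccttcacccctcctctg

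The unfolded protein response, of which 1 arm also acts through ATF4, was mixed. Of 20 genes for chaperones and for protein disposal in the endoplasmic reticulum, 14 were higher and 6 lower. Among all genes 52.3% were higher. The median difference of the 20 genes was 0.29, and 27 of their 45 probe sets were higher. Sec61b, a subunit of the translocation channel, had 2359 at passage 3 and 1141 at passage 1, a difference of 1.04 by 1 probe set. The chaperone genes Calr, Pdia6 and Sdf2l1 were at 0.49, 0.60 and 0.80. Hspa5, which encodes BiP, had 4281 and 5308, a difference of -0.31, and its 3 probe sets ran from -0.31 to 0.19. Herpud1 and Xbp1 were lower at -0.71 and -0.68, by both and by all 4 of their probe sets.

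Heat shock genes were higher in 10 of 14 cases, against 52.3% of all genes, with a median difference of 0.41. Hspb1, the small heat shock protein HSP27, had 1784 at passage 3 and 496 at passage 1. Its 2 probe sets gave 1.81 and 1.91. Cryab, a related small chaperone, was at 0.92, with 0.88 for its second probe set, and the HSP70 gene Hspa8 at 0.63 with 4 probe sets from 0.47 to 0.89. Hspa1b was at 0.62, but its near-identical copy Hspa1a, below the intensity limit, cannot be kept apart from it with certainty. Hspa4 was lower at -0.45.

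The other stress lists were mixed, where 52.3% of all genes were higher and 47.6% lower. NRF2 and glutathione genes were higher in 12 of 19 cases, with a median of 0.15. Gsta4, a glutathione transferase, was at 1.24 and the metallothionein Mt1 at 1.04, while the heme oxygenase Hmox1 was at -0.03. The 1 member at least 2-fold lower was Slc7a11, which is also on the amino acid list. Nqo1 had 14.3 at passage 3 and 18.4 at passage 1, below the intensity limit on both, and was tested through its 157 and 174 on the bone arrays. Hypoxia and glycolysis genes were higher in 18 of 23 cases, with a median of 0.30. Bnip3, a mitophagy receptor, had 473 at passage 3 and 224 at passage 1, while the growth factor gene Vegfa had 202 and 395, a difference of -0.92 with -1.12 for its second probe set. Targets of p53 were higher in 11 of 16 cases, with a median of 0.34, led by Trp53inp1 at 1.08, whose second probe set gave 0.11. Immediate early genes were lower in 12 of 18 cases, with a median of -0.24. Egr2 had 66.8 at passage 3 and 278 at passage 1, with probe sets at -1.83 and -1.14, whereas Fos and Jun were at -0.16 and -0.06.

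**Figure D3:**
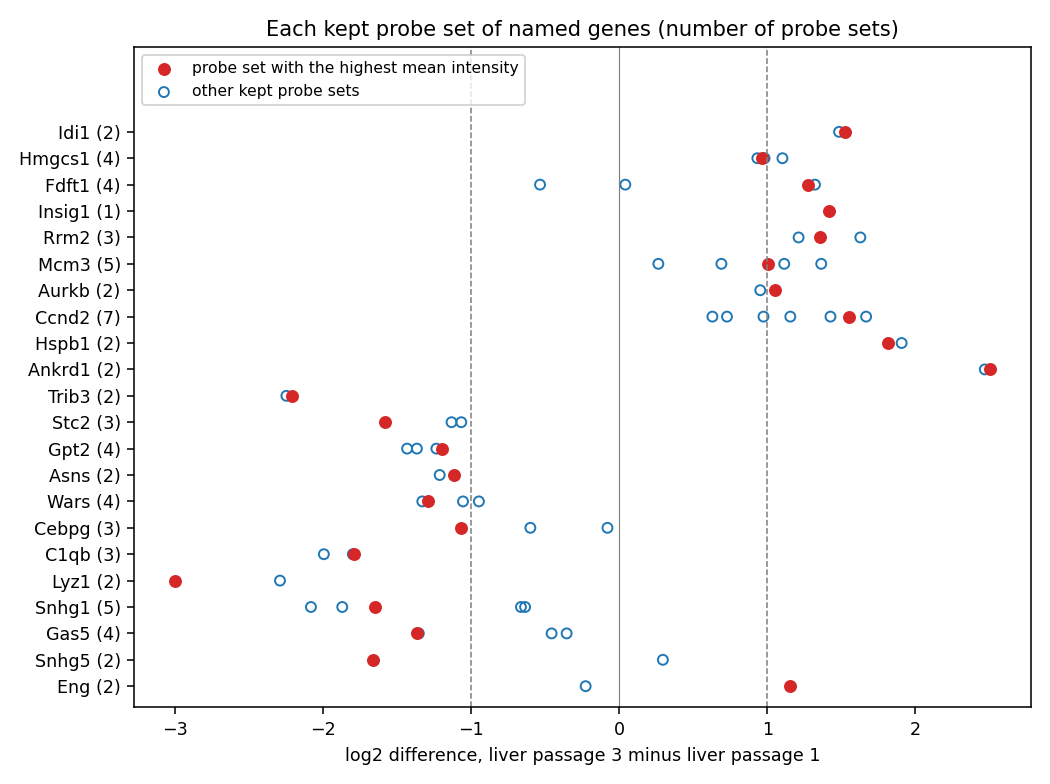
Each row is 1 gene and each point 1 of its kept probe sets, placed by its log2 difference, liver passage 3 minus liver passage 1. Filled red points are the probe sets that stand for the gene, open blue points the others, the number of probe sets follows the name, and dashed lines mark 2-fold. Trib3, Hmgcs1 and Gpt2 have probe sets close together, while Fdft1, Snhg5 and Eng have probe sets on both sides of 0.

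Some macrophage genes were measured at passage 1 and lay at the floor of the array at passage 3. In a bulk sample, fewer cells of a type and less RNA per cell cannot be told apart. Lyz1, a lysozyme gene on the macrophage list, had an intensity of 0.6 at passage 3 and 117 at passage 1, and 0.6 to 0.8 on the other 3 arrays. Its 2 probe sets gave -3.00 and -2.29. The complement genes C1qa, C1qb and C1qc had 1.1, 11.8 and 0.8 at passage 3, against 56.1, 80.4 and 44.9 at passage 1. Ctss, a lysosomal protease of antigen-presenting cells, had 16.8 at passage 3 and 116 at passage 1. Each of these genes reached the intensity limit through passage 1 alone, so that it had to be lower at passage 3. Of these, only C1qb and Lyz1 have several probe sets, and the 3 of C1qb ran from -2.00 to -1.79.

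Lyz2, at 42.2 and 140.4, differed by -1.43, but it is a near-identical copy of Lyz1 and the probe sets of one can read the other. Outside the lists, the lysosomal protease genes Ctsc and Ctsz and the chemokine gene Ccl6 were among the genes with the most negative differences. Ctsc had 4.1 at passage 3 and 96.1 at passage 1, Ctsz 5.4 and 40.5, and Ccl6 14.9 and 78.0. These 3 genes reached the intensity limit through passage 1 alone, so that they too had to be lower at passage 3. Cd74, the invariant chain of MHC class II, had 33.0 and 102, a difference of -1.26, while the class II genes H2-Aa, H2-Ab1 and H2-Eb1 were at -0.23, -0.23 and 0.40.

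Other defining macrophage markers were less than 2-fold apart or below the intensity limit. Csf1r, the receptor for macrophage colony-stimulating factor, had 220.0 at passage 3 and 169 at passage 1, with 3 probe sets from 0.15 to 0.35. Cd68 had 172 and 173. Adgre1, which encodes F4/80, had 27.6 and 49.9, and Ptprc, which encodes CD45, 6.1 and 25.7. The Kupffer cell markers Clec4f, Vsig4, Timd4, Cd5l and Marco were below the intensity limit on all 5 arrays, with Clec4f at 16.9 and 12.7. Of the 29 markers, 19 were tested, and 9 of these reached the limit through passage 1 alone, so that they had to be lower at passage 3. None reached it through passage 3 alone. Over all genes tested, 1.13% reached it through passage 1 alone and 1.35% through passage 3 alone. Over all 29 without the limit, 12 were higher and 17 lower, with a median of -0.23. Summed over the 29 markers, the intensity was 976 at passage 3 and 1467 at passage 1, and 556 to 669.9 on the other 3 arrays.

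Many markers of the liver's other cells were at or near the floor on both arrays, with exceptions on the endothelial, stellate cell and bile duct lists. The albumin gene Alb had 10.1 at passage 3 and 4.8 at passage 1, and the other major plasma protein genes Ttr, Apoa1, Fga and Ahsg did not exceed 17.0 on these arrays. Of 22 hepatocyte genes with a probe set, 15 were below the intensity limit. Of the 7 tested, 6 reached at most 43.1 on this pair of arrays by their brightest probe sets. One of them, the transcription factor gene Hnf4a, had 35.0 at passage 3 and 24.5 at passage 1, while its second probe set had 50.8 and 7.1, a difference of 1.53. The remaining one was Arg1, the urea cycle arginase, which many other cell types also make, with 381 at passage 3 and 73.8 at passage 1. It had 578, 640.1 and 35.9 at bone passage 6, bone passage 3 and in parental cells. Pecam1, the endothelial adhesion gene, had 1.9 and 5.2, and the sinusoidal gene Stab2 had 23.3 and 12.5. Eng, at 66.6 and 21.2, had probe sets at 1.15 and -0.23. Of stellate cell and fibroblast genes, Lrat had 4.9 and 8.7, Col1a1 16.1 and 28.1, and 5 of 10 tested were higher and 5 lower. Other members were well above the limit on both arrays. The endothelial genes Flt1 and Stab1 had 161.8 and 75.1 at passage 3, and 178.9 and 85.9 at passage 1. Postn, Pdgfra and Acta2 had 223.8, 124.5 and 104.0 at passage 3, and 198.0, 138.3 and 105.1 at passage 1.

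Markers of T and NK cells, B cells, red cells and bile duct gave 0 to 1 genes at least 2-fold apart each. Of these lists 3, 2, 1 and 3 genes were tested. The 1 gene was Cd247, at 25.3 and 3.1, which reached the intensity limit through passage 3 alone and so had to be higher there. Of the bile duct genes, Krt7 had 4593 at passage 3 and 4841 at passage 1, Sox9 395.5 and 396.6, and Sctr 25.1 and 18.7. Krt7 is also on the mammary epithelial list. Among neutrophil genes S100a8, which tumour epithelium also makes, had 302 at passage 3 and 95.9 at passage 1, while S100a9 and Camp were below the intensity limit. Lpl, a lipase listed as a marker of fat cells, had 254 and 82.8, with probe sets at 1.45 and 0.99. The part of host cells in the proliferation, sterol and stress differences was not tested. The macrophage and class II markers that were at least 2-fold lower reached at most 140.4 at passage 1, an intensity that does not give a share of cells.

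The bone sub-line also has a later and an earlier passage, 6 and 3, on arrays that the liver pair does not share. It is not the same step, since the passage numbers and their span differ. Values are therefore set side by side, and no test was made. Over all genes the correlation of the 2 differences was low (Pearson's r = 0.097, Spearman's rho = 0.0815, across 12609 genes that are no independent replicates and share the filter and the choice of probe set). Between the bone passages 46 genes (0.365%) were at least 2-fold higher and 263 (2.09%) at least 2-fold lower. Of the 46, 9 were also 2-fold higher in liver, which is 4.23% of the liver genes and 19.6% of the bone genes. On the lower side 11 were shared, 7.75% of the liver genes and 4.18% of the bone genes. Opposite directions were found for 8 genes that were 2-fold higher in liver and 2-fold lower in bone, and for 0 the other way round.

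By list, licensing, DNA synthesis and mitotic genes had medians above 0 in both sub-lines. Over all genes 52.3% were higher in liver and 44.2% in bone. Median differences for licensing were 0.48 in liver and 0.52 in bone, for DNA synthesis 0.54 and 0.39, and for mitosis 0.46 and 0.49. The 4 CDK inhibitors had a median of 0.64 in liver and -0.13 in bone, where 1 was higher and 3 lower. Cholesterol synthesis genes had a median of 0.44 in liver and -0.01 in bone, where 7 of 17 were higher. Amino acid stress genes had a median of -0.84 in liver and -0.18 in bone, where 19 of 31 were lower, and Trib3 was at -2.21 and -1.16.

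Interferon response genes had opposite signs in the sub-lines. In liver 19 of 24 were higher at the later passage, with a median of 0.46, 2 of them 2-fold. In bone 22 of 24 were lower, against 55.6% of all genes, with a median of -1.15, 15 of them 2-fold. Bst2, which encodes tetherin, had 1026 at liver passage 3 and 472 at liver passage 1, against 159 at bone passage 6 and 529 at bone passage 3. Ifit2 had 359 and 134 in liver, a difference of 1.32, and 218 and 186 in bone, a difference of 0.21. The difference between the sub-lines was not tested, since each value rests on 1 pair of arrays.

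**Figure D4:**
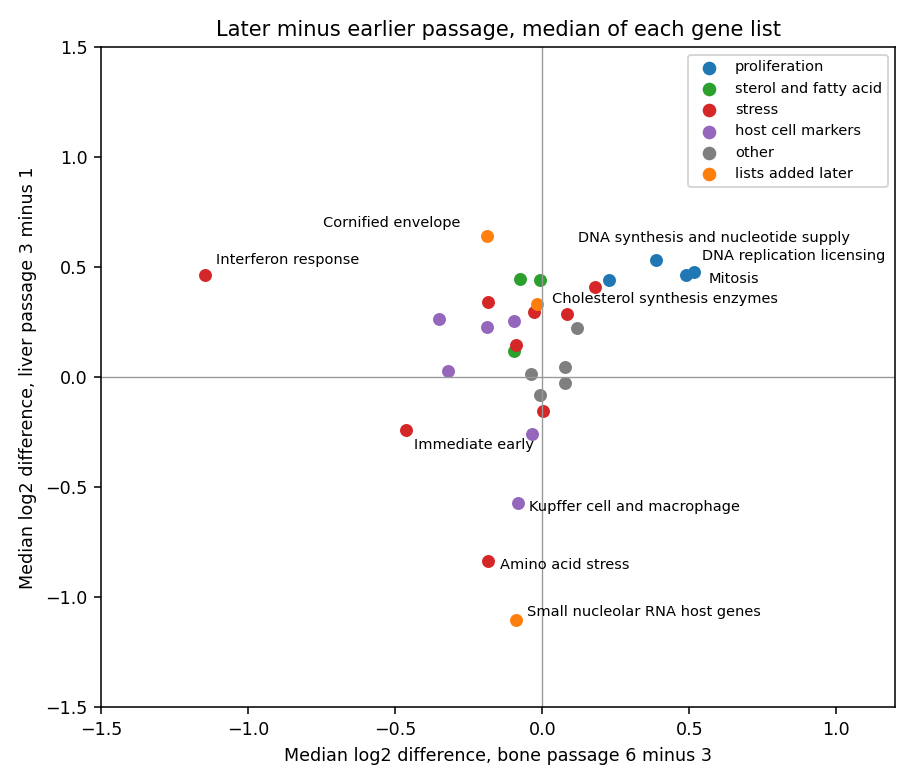
Median log2 difference of each gene list with 5 or more tested genes, liver passage 3 minus 1 on the vertical axis and bone passage 6 minus 3 on the horizontal axis. Each point is 1 list from 1 pair of arrays per sub-line, so there are no error bars. Licensing, DNA synthesis and mitosis lists are above 0 on both axes, interferon response genes are at 0.46 in liver and -1.15 in bone, and amino acid stress genes are at -0.84 and -0.18. Of the 19 macrophage genes behind their median, 9 reached the intensity limit through liver passage 1 alone.

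Outside the lists, several genes with the most positive differences and several probe sets belong to division and metabolism. Pclaf, a PCNA-binding protein, had 2236 at passage 3 and 605 at passage 1, with probe sets at 1.86 and 1.81. Stmn1, a microtubule-destabilising protein, had 2087 and 723, with probe sets at 1.51 and 1.80, and Cdca5, which encodes sororin, 560.3 and 191, with 1.48 and 1.63. Idh1, the cytosolic isocitrate dehydrogenase that supplies NADPH, had 517 and 137, with 1.80 and 1.18. Uqcrh, a subunit of respiratory complex III, had 1314 and 351, with 1.86 and 1.61, while 25 other respiratory chain genes had a median of 0.05. Ogn, a matrix proteoglycan, had 108 at passage 3 and 0.9 at passage 1, with probe sets at 2.88 and 1.44, and reached the intensity limit through passage 3 alone. Sbspon had 261 and 40.7, with 2.29 and 1.89.

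On the lower side, Hbegf, a ligand of the EGF receptor, had 1069 at passage 3 and 2862 at passage 1, with probe sets at -1.41 and -1.49. Gtpbp2, a GTPase linked to stalled ribosomes, had 237 and 626, with 3 probe sets from -1.34 to -1.18. Spata5 had 259.6 and 734, with 3 probe sets from -1.44 to -1.27, and Stbd1, a glycogen-binding protein, had 254 and 1091 by 1 probe set. Snai3 had 58.9 and 192, with probe sets at -1.47 and -2.34. For all 5 genes liver passage 1 was the highest of the 5 arrays, which their choice as lower at passage 3 favours.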

How the data were processed

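RNA of 5 NT2.5 cultures, 5 ug each per the labels' protocols, was hybridised to Affymetrix mouse arrays, 1 array for each group. The authors deposited 1 linear intensity for each of 45101 probe sets. RMA is named in the submitters' processing notes (version not given in the sources used here), but the deposited intensities are not on the log2 scale that RMA gives, and the mean after trimming 2% was 150.0 on each array. How far they were normalized further is therefore unknown, and the small number of arrays limits the precision. There were 0 other columns of per-sample values.

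From the deposited intensities, log2(intensity + 16) and its differences were computed with Python 3.11.15, pandas 2.3.3, NumPy 2.4.6 and SciPy 1.17.1, and drawn with matplotlib 3.10.9. The steps were tested on simulated data. Of the probe sets, 34945 had 1 gene symbol in the platform annotation and 932 several, which were left out; 9211 were unlisted here and 64 were controls. Of the first, 34741 matched RefSeq's table for GRCm38.p6. No test was made, since each group has 1 array.

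Members and lists (33, and 3 added later) were chosen with earlier results of these data known. Named genes were, in each direction, up to 12 with the largest difference among those at least 2-fold apart by several probe sets that all differed 1.5-fold, up to 5 with 1 probe set, up to 6 of each list past 2-fold, and a fixed set. Further genes were named after their values were seen. Some genes are not reported here. Alternatives covered the added constant, the filter, the scaling, the choice of probe set and the threshold.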

Additional observations from a re-analysis of the deposited data

Results flagged for a closer look

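Interferon response genes had opposite directions in the sub-lines, with a median difference of 0.46 for liver passage 3 against passage 1 and of -1.15 for bone passage 6 against passage 3. The tetherin gene Bst2, an interferon target, had differences of 1.09 in liver and -1.64 in bone. With 1 pair of arrays for each sub-line the difference was not tested. The parental intensity of Bst2 was 290.2, below liver passage 3 and passage 1 and between the bone passages.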

How the results depend on the processing

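With an added constant of 1, the 2-fold threshold was passed by 497 genes on the higher side and 307 on the lower, against 213 and 142 with 16, the stricter probe set rule gave 185 higher against 118, and the neutrophil median was 0.59 against 0.26. With 64, the counts were 79 and 50, the stricter rule gave 61 higher and 52 lower, and the macrophage median was -0.27 against -0.57. Without a filter the medians were 0.29 against 0.64 for CDK inhibitors and -0.23 for macrophage markers, of which 9 of the 19 tested had reached the limit through passage 1 alone. A filter at 4 times the median left 131 genes higher and 86 lower, a 3-fold threshold 31 and 28, and the stricter rule at 2-fold 23 and 21. Without suffixed probe sets, which leaves fewer genes, the stricter rule gave 50 higher. Taking the probe set highest at passage 1 gave an endothelial median of -0.0578 against 0.23 and a reversed Eng at -0.23. In an alternative chosen after seeing the data, the 4 macrophage members with several probe sets, each at the mean of these, had a median of -1.28. By their brightest probe sets Lyz1 and C1qb were at -3.00 and -1.79, and Csf1r and Laptm5 at 0.35 and 0.12. Lyz1 and C1qb reached the limit through passage 1 alone, so that they had to be lower at passage 3. Of named genes, 1004 differences over all settings stayed within the spread, 88 moved and 1 reversed. Medians over 14 settings ran from 0.42 to 0.56 for licensing, 0.45 to 0.61 for DNA synthesis, 0.39 to 0.49 for mitosis, 0.39 to 0.61 for cholesterol synthesis and -0.94 to -0.72 for amino acid stress. Causes were not tested. No paired analysis was possible because each group has 1 array. Dim genes such as Lyz1 (-6.20 to -1.49) have a direction but no settled size.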

Other observations

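Host genes of small nucleolar RNAs, whose introns carry the guides of ribosomal RNA modification and whose spliced transcripts are decayed during translation, were lower at liver passage 3 in 10 of 15 cases, with a median of -1.10. This median ran from -1.34 to -0.49 over 14 settings, and was -0.52 with each gene at the mean of its probe sets. Over their 26 probe sets the median was -0.58, with 9 higher. The list was drawn up after the data were seen. Among all genes 47.6% were lower. Zfas1 had an intensity of 482 at passage 3 and 3524 at passage 1, and 654.5 to 961 on the other 3 arrays. Snhg12 had 117 and 798 at the same passages, each by 1 probe set. The 5 probe sets of Snhg1 ran from -2.08 to -0.64, and the 4 of Gas5 from -1.37 to -0.36. For Snhg5 and Snhg16 the second probe sets gave 0.29 and 0.17, against -1.66 and -1.10 for the brighter ones, while Snhg3, Snhg4 and Snhg18 were at 0.31, 0.30 and 0.89. Cytosolic ribosomal protein genes had a median of -0.03 over 17 genes.

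Cornified envelope genes, which build the outer layer of stratified epithelium, were higher at passage 3 in 12 of 14 tested cases on a list also drawn up after the data were seen. Among all genes 52.3% were higher. Of the 14, 2 reached the intensity limit through passage 3 alone and 1 through passage 1 alone. Over all 28 members without the intensity limit, 22 were higher and 6 lower, with a median of 0.21. Lce1h had 396 at passage 3 and 21.6 at passage 1, against 181 in parental cells. Involucrin (Ivl) had 152 and 28.7, with probe sets at 1.91 and 1.33, and the galectin Lgals7 had 156 and 33.1. Krt17, a keratin of stratified and stressed epithelium, was at 1.97. Vim and the epithelial splicing factor Esrp1 were at 0.07 and -0.43.

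Ankrd1, a YAP target, had 3496 at liver passage 3 and 602 at liver passage 1, and 80.2 to 228 on the other 3 arrays, with probe sets at 2.51 and 2.47. Across 21 YAP targets, another list drawn up after the data were seen, 12 were higher and 9 lower, and the classical targets Ccn1 and Ccn2 were at 0.43 and 0.88, with Ccn2 at 16.1 and 1.5. The growth arrest gene Gadd45a was lower, with 344 and 1143.

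Of 20 chemokine and cytokine genes, 9 were higher and 11 lower. Csf2, which encodes GM-CSF, had 78.1 at passage 3 and 10.6 at passage 1, and Il33 had 300.5 and 112. Ccl20 had 258 and 560.1, and the 3 probe sets of Cxcl1 ran from -0.99 to -0.79. Matrix genes were higher in 17 of 22 cases, against 52.3% of all genes. The urokinase gene Plau led them at 0.90, while the protease Mmp2 was at -1.02. Mmp13, at 3.7 and 45.9, reached the intensity limit through passage 1 alone and so had to be lower at passage 3. Among 2595 kept probe sets without a listed gene, 60 were at least 2-fold higher and 24 lower.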
